A study of Mus musculus with 2 samples.

Results

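The genes described here are 10 genes of glucose uptake and glycolysis: the glucose transporters Slc2a1 and Slc2a3, hexokinase Hk2, and the glycolytic enzymes Aldoa, Tpi1, Gapdh, Pgk1, Eno1, Pkm and Ldha. They were taken by symbol from a gene list of 55357 genes, and all 10 were present. The symbol Aldoa belongs to 2 identifiers, of which ENSMUSG00000030695 held all UMIs and ENSMUSG00000114515 held 0. Glycolysis turns glucose into pyruvate, and lactate dehydrogenase turns pyruvate into lactate. Resting T cells take up little glucose, whereas T cells that are activated and start to divide are known for raising glucose transport and glycolysis. Several steps have paralogs that are used in different tissues, such as Hk1 and Hk2 or Ldha and Ldhb, and GAPDH is also known to bind RNA in T cells.

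The data were 2 droplet single-cell RNA libraries of T cells from mouse ileum, 1 labelled SAP and 1 labelled Control. Per the series' design text, phages from SAP mice or from healthy mice were given to dendritic cells, which were then cultured with gut T cells of germ-free (GF) mice. T cells that touched a dendritic cell were marked enzymatically with fucosyl-biotin (FucoID, a proximity labelling method). The labels do not say whether the sequenced cells were the marked fraction, how many mice were pooled, or what SAP stands for. By that text the T cells of both libraries came from GF mice, and the groups differ in the phages given to the dendritic cells.

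With 1 library per group there are no replicates and no test between SAP and Control. Every interval below is an exact 95% interval that covers counting error only, not the difference between cultures or animals. Intervals of levels, ratios and paralog shares treat each UMI as independent, so they also leave out the spread between cells. Levels are in CPM, the UMIs (tagged transcript molecules) of a gene over all UMIs of the cells summed, on the usual parts-per-1e6 scale. The 3′ kit tags each molecule once, so UMIs of different genes are set side by side without division by length.

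After filtering, 4826 SAP and 5408 Control cells were retained, and 4652 and 5251 of them had at least 1 UMI of Cd3d, Cd3e or Cd3g. These CD3 cells hold 17495826 UMIs in SAP and 17477301 in Control, with medians of 3438.5 and 3140 UMIs per cell. The libraries share 6 cell barcodes. The CD3 cells include 70 SAP and 26 Control cells with a UMI of Folr1, which were deep (medians of 6764 and 4427.5 UMIs) and held 7.35% and 2.43% of the UMIs. The Folr1 cells had 190 CPM of Cd3e in SAP and 222 in Control, against 1543 and 1614 in the CD3 cells without them, and the epithelial keratin Krt18 led the enterocyte markers in them at 1482 and 1644 CPM. The 16 enterocyte markers summed to 201 CPM in SAP and 132 CPM in Control with Folr1 cells, and to 86.0 and 91.9 CPM without them. Results that move with Folr1 cells are given with and without them.

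Cells were gated on genes outside the set. Trdc cells have a UMI of the δ receptor chain (2053 SAP and 2284 Control cells), Cd8b1 cells have a UMI of the CD8β chain and none of Trdc or Cd4 (536 and 536), and Cd8a cells have Cd8a and none of Cd8b1, Trdc or Cd4 (1188 and 1432). Cd4 cells have Cd4 and none of the CD8 or δ genes (164 and 185). No gate took 711 SAP and 814 Control cells. Mki67 cells have a UMI of the proliferation gene Mki67, whatever their other gate (131 and 135). As a check on genes no gate used, the αβ receptor gene Trac had 672 CPM in SAP and 662 CPM in Control Cd4 cells, against 270 and 292 CPM in Trdc cells. The αβ receptor genes Trbc1 and Trbc2 set these gates apart less. Trbc2 had 1215 CPM in SAP and 1253 CPM in Control Cd4 cells, against 898 and 915 CPM in Trdc cells. Trbc1 had 714 CPM in SAP and 578 CPM in Control Cd4 cells, against 691 and 697 CPM in Trdc cells, so in Control it was higher in Trdc cells.

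The 10 genes together had 1661 CPM in SAP (29065 UMIs) and 1668 CPM in Control (29160 UMIs), and 92.2% and 93.5% of CD3 cells had at least 1 of their UMIs. Gapdh, which oxidises glyceraldehyde phosphate, was the most abundant by a wide margin, with 726 CPM in SAP and 706 CPM in Control. The aldolase Aldoa had 233 CPM in SAP and 242 in Control, Ldha had 204 and 217, and the pyruvate kinase gene Pkm had 188 and 194. The intervals of these 4 genes do not overlap each other in either library. The enolase Eno1 had 81.6 CPM in SAP and 94.1 in Control, the phosphoglycerate kinase Pgk1 had 75.3 and 75.8, and the triose phosphate isomerase Tpi1 had 68.7 and 60.3. In SAP the intervals of neighbours in that order overlap, and in Control they do not. At the entry of the pathway levels were lower: Slc2a3 (GLUT3) had 43.3 CPM in SAP and 40.3 in Control, Slc2a1 (GLUT1) had 23.0 and 20.6, and Hk2 had 18.1 and 19.2. The intervals of Slc2a1 and Hk2 overlap in Control and not in SAP.

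Few cells carried enough UMIs for a reading per cell. Gapdh was seen in 74.7% of SAP and 74.7% of Control CD3 cells, Ldha in 44.7% and 42.5%, and Hk2 in 5.37% and 4.38%. With a random draw of 1000 UMIs from each cell (380 SAP and 396 Control cells were too shallow for it), the shares came to 44.8% and 46.4% for Gapdh, 18.2% and 18.2% for Ldha, and 1.83% and 1.63% for Hk2. These enzymes are used by every cell type, so no cell type here gives a background share from free RNA.

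**Figure D1:**
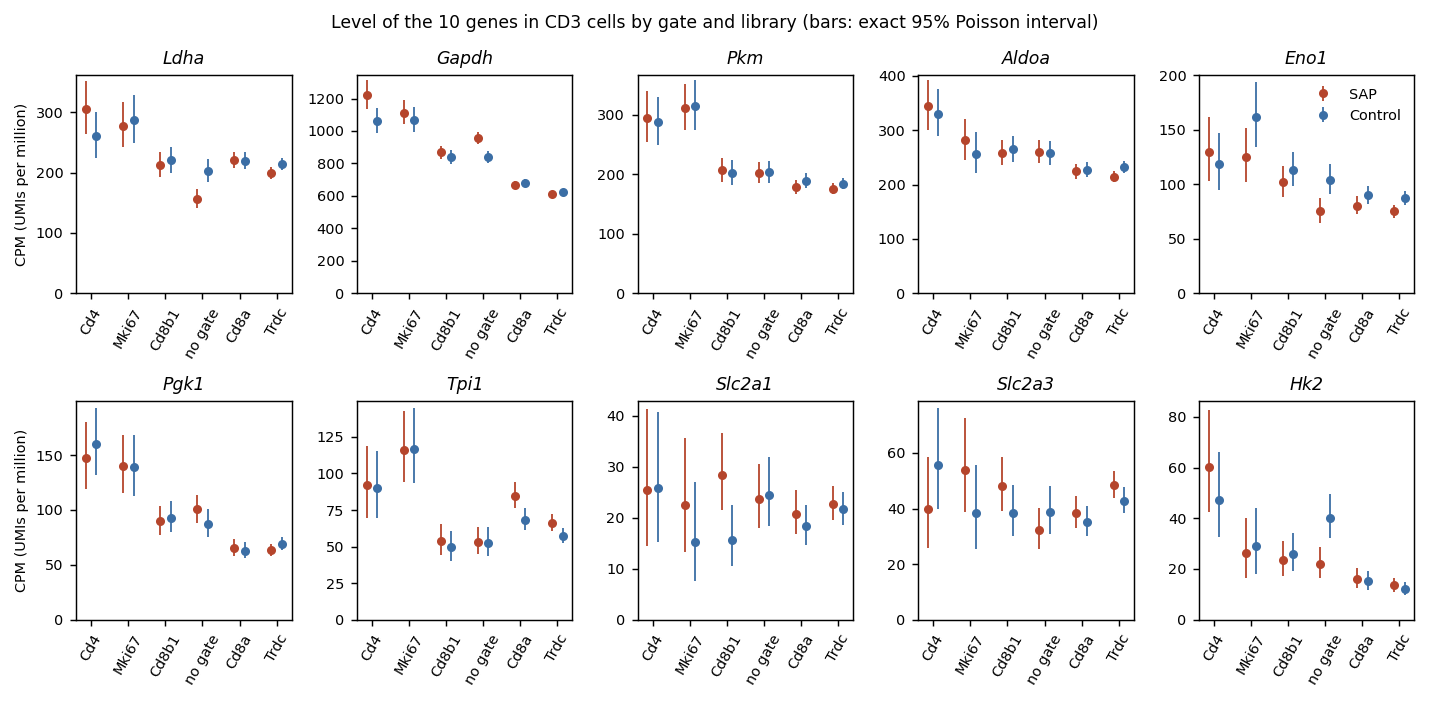
Level of each gene in CPM (linear axis from 0) in 6 sets of CD3 cells, with SAP in red on the left and Control in blue on the right of each pair and bars for the exact 95% Poisson interval. Gapdh, Pkm, Pgk1 and Hk2 are highest in Cd4 or Mki67 cells in both libraries, whereas Slc2a1 and Slc2a3 show wide, overlapping intervals.

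Cd4 cells had the highest summed level, 2663 CPM in SAP and 2436 CPM in Control. Mki67 cells had 2467 and 2430 CPM, Cd8b1 cells 1894 and 1862, cells of no gate 1884 and 1850, Cd8a cells 1596 and 1604, and Trdc cells 1492 and 1546. The intervals of Cd4 and Mki67 cells overlap in both libraries, as do those of Cd8b1 cells and cells of no gate. In sums over cells, fewer cells with a transcript and fewer transcripts per cell cannot be told apart. In cells thinned to 1000 UMIs both could be read. Of Cd4 cells 16.3% in SAP and 13.5% in Control had no UMI of the 10 genes, against 26.3% and 24.5% of Trdc cells. The 90th percentile was 5 such UMIs per Cd4 cell and 3 per Trdc cell in both libraries.

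In Cd4 cells, 8 of the 10 genes were higher than in the other CD3 cells in both libraries with intervals that exclude equality. The glucose transporters were not among them. These 8 were read from pooled UMIs, and the share of all genes that pass this interval rule was not computed. Shares of thinned SAP Cd4 cells with a UMI were close to those of all SAP CD3 cells for Eno1 (7.84% against 7.82%) and Pkm (17.6% against 17.2%). For Tpi1 the share was lower (6.54% against 7.19%). Thinned SAP shares of Gapdh, Ldha, Aldoa, Pgk1 and Hk2 were higher in Cd4 cells. In Control the thinned shares of all 8 were higher. The summed level was 1.64-fold that of the other CD3 cells in SAP (1.56 to 1.72) and 1.49-fold in Control (1.42 to 1.56). Counted at 1.5-fold or more in both libraries, 4 of 10 genes were higher (Gapdh, Pkm, Pgk1 and Hk2) and 0 were lower. Over all 5536 genes with enough UMIs, 5.98% were 1.5-fold higher and 12.8% were 1.5-fold lower in both, and the median gene stood at 0.933-fold in SAP and 0.906-fold in Control. The count was 2 (Pgk1 and Hk2) when the cell with the most UMIs of the set was left out of each library's gate, and 2 (Gapdh and Hk2) without Mki67 cells. Without Folr1 cells the count was also 4 of 10, against 5.96% of genes higher and 11.9% lower.

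Hk2, which traps glucose in the cell by phosphorylating it, had the largest ratio of the 10 in Cd4 cells. Its level was 60.3 CPM in SAP Cd4 cells (38 UMIs in 26 of 164 cells), against 16.5 CPM in the other SAP CD3 cells, a ratio of 3.64 (2.52 to 5.13). In Control it was 47.2 CPM in Cd4 cells (33 UMIs in 21 of 185 cells), against 18.1 CPM in the others, a ratio of 2.61 (1.77 to 3.75). Of the 33 Control UMIs, 8 were in 1 cell, and the highest SAP cell held 7 of 38. Pgk1, the first enzyme of the pathway to make ATP, followed with 147 CPM against 72.6 CPM in SAP (2.03-fold, 1.63 to 2.51) and 160 CPM against 72.2 CPM in Control (2.22-fold, 1.81 to 2.69).

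Gapdh had 1223 CPM in SAP Cd4 cells, against 707 CPM in the others (1.73-fold, 1.61 to 1.86), and 1060 CPM in Control Cd4 cells, against 691 CPM (1.53-fold, 1.42 to 1.65). Pkm was 1.6-fold in SAP and 1.51-fold in Control, Aldoa 1.5-fold and 1.39-fold, Eno1 1.63-fold and 1.28-fold, and Ldha 1.53-fold and 1.21-fold. These 5 genes have intervals above equality in both libraries. Tpi1 was 1.36-fold in SAP and 1.53-fold in Control. Slc2a1 had 16 UMIs in SAP Cd4 cells and 18 in Control, Slc2a3 had 25 and 39, and their intervals hold equality in both libraries.

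A few deep cells carry part of the excess in SAP. A single SAP Cd4 cell, which also had a UMI of Mki67, held 153 of the gate's 1679 UMIs of the 10 genes in a total of 15982 UMIs. Without it the summed log2 ratio was 0.61 in place of 0.71, that of Pkm 0.49 in place of 0.68, and that of Tpi1 0.045 in place of 0.44. In Control, leaving out the cell with the most such UMIs gave 0.53 in place of 0.57. Of the 82 Eno1 UMIs in SAP Cd4 cells, 16 were in 1 cell. Mki67 was detected in 6.10% of SAP and 3.24% of Control Cd4 cells. Without the cells with an Mki67 UMI the summed log2 ratio was 0.50 in SAP and 0.55 in Control, and that of Tpi1 in SAP turned to -0.33. With that set left out Pkm was 0.28 in SAP. By quartile of UMIs per cell, lowest to highest, the Cd4 ratio was 1.37, 1.35, 1.21 and 2.04 in SAP and 1.45, 1.25, 1.51 and 1.53 in Control, above equality in every quartile with its interval. Of the other cell types' markers, the 16 enterocyte genes summed to 9.52 CPM in SAP and 21.5 CPM in Control Cd4 cells, with 14 and 13 of them at 0. The 10 B and plasma cell genes summed to 61.9 CPM in SAP and 11452 CPM in Control, where 1 cell of 15898 UMIs held 7492 UMIs of Igkc and 10 UMIs of the 10 genes.

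**Figure D2:**
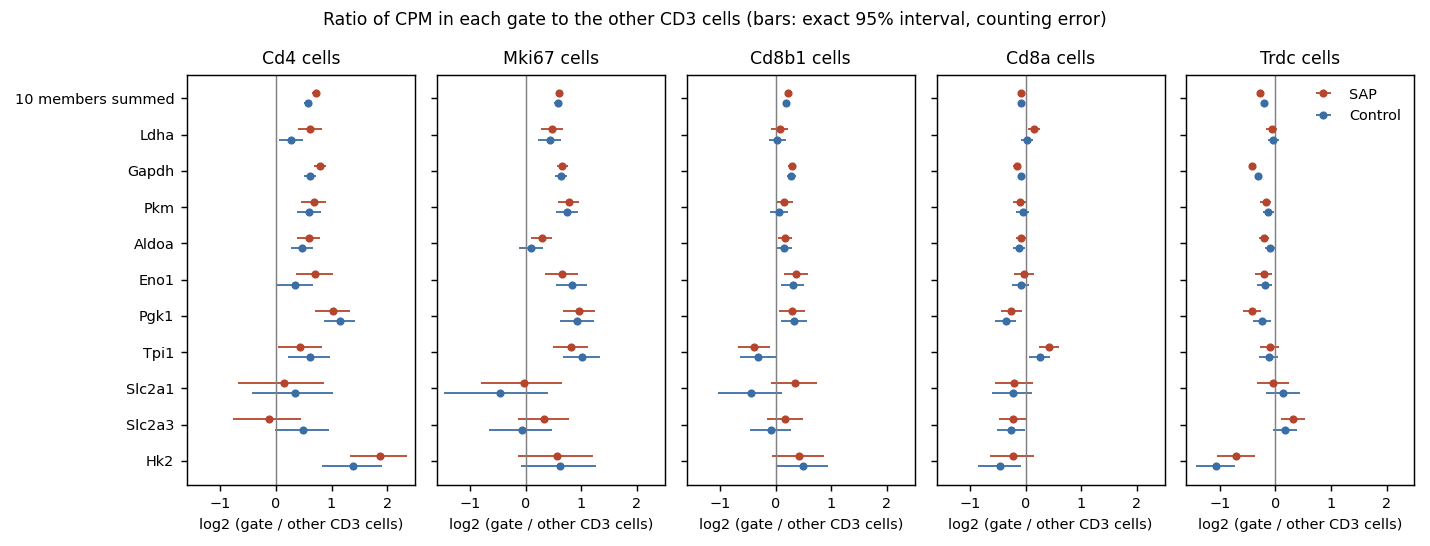
Log2 ratio of CPM in each gate to CPM in the other CD3 cells of the same library for the summed genes and each gene, with SAP in red above Control in blue and bars for exact 95% intervals of counting error. Hk2 in Cd4 cells lies farthest to the right (3.64-fold in SAP and 2.61-fold in Control) and Hk2 in Trdc cells farthest to the left (0.612-fold and 0.474-fold).

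The promoters of 3 members are printed with the motif that the best-known regulators of the pathway share. HIF-1 and Myc are transcription factors known to raise glycolytic genes, and both bind sites that contain ACGTG. The 250 bases before the start were available for 9 of the 10 genes (15 promoters, as some genes have several starts). The letters ACGTG, on either strand, occur in 7 of the 15 promoters, against 16.6% of 32851 mouse promoters of that length. The 7 include overlapping Aldoa windows that hold the same match. By gene, 6 of the 9 hold it in at least 1 promoter, and the share of all genes that do was not computed. GCGTG, the other common core of HIF-1 sites, occurs in 6 of the 15 promoters (4 of 9 genes), against 28.2% of all promoters. Those 6 include overlapping Eno1 windows that hold the same matches. The Myc site CACGTG, which contains ACGTG, occurs in 1 of the 15, that of Ldha, against 6.02%. Hk2 and Pgk1, with the largest ratios in Cd4 cells, are printed with Ldha, which holds the most matches (5, counting each strand of the palindrome CACGTG, between positions -145 and -34 from the start). ACGTG or its reverse complement CACGT is in capitals; RefSeq, build GRCm38.p6, Hk2 chr6:82774455-82774704 on the minus strand, Pgk1 chrX:106186850-106187099 and Ldha chr7:46845554-46845803 on the plus strand.
Hk2: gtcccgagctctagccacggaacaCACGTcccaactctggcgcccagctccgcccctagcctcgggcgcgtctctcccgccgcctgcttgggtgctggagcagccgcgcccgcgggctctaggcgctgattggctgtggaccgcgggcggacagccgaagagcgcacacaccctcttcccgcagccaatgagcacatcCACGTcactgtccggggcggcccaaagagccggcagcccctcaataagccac
Pgk1: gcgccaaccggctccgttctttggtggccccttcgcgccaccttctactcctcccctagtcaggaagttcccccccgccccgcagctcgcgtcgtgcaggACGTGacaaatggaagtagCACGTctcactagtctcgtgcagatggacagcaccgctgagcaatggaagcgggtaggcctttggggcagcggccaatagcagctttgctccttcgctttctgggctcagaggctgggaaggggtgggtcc
Ldha: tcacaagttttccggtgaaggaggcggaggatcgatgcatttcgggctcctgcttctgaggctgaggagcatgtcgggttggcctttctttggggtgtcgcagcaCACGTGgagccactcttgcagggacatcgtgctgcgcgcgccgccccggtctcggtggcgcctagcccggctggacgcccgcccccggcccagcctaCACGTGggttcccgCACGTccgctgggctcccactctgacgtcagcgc
Gapdh, Eno1 and Tpi1 have no ACGTG in the windows searched. A match is a string of letters and not a bound site.

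Mki67 cells, the dividing cells, had 1.52-fold the summed level of the CD3 cells without Mki67 in SAP (1.45 to 1.59) and 1.49-fold in Control (1.42 to 1.56). At 1.5-fold or more in both libraries, 5 of 10 genes were higher (Gapdh, Pkm, Eno1, Pgk1 and Tpi1) and 0 lower, against 5.95% of 5611 genes higher and 2.46% lower. The count was 3 with median-of-ratios or TMM factors (Pkm, Pgk1 and Tpi1), 3 without the cell with the most UMIs of the set in each library's gate (Gapdh, Pkm and Pgk1), and 0 with the mean of each cell's own CPM. Without Folr1 cells it was also 5 of 10, against 6.20% higher and 2.66% lower. Tpi1 had 116 CPM in SAP Mki67 cells, against 66.4 CPM in the others (1.75-fold, 1.40 to 2.17), and 117 CPM in Control, against 57.9 CPM (2.02-fold, 1.6 to 2.52). Pgk1 was 1.94-fold in SAP and 1.90-fold in Control, Pkm 1.71-fold and 1.67-fold, Gapdh 1.57-fold and 1.55-fold, and Eno1 1.57-fold and 1.78-fold. Ldha was 1.38-fold in SAP and 1.34-fold in Control, with both intervals above equality. Aldoa was 1.22-fold in SAP and 1.07-fold in Control, where its interval holds equality. The intervals of Slc2a1, Slc2a3 and Hk2 hold equality in both libraries, and 9 of the 21 Control UMIs of Hk2 were in 1 cell.

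Depth moved with this result. Mki67 cells had a median of 4471 UMIs in SAP and 4136 in Control, above the medians of all CD3 cells. The summed level itself was higher in deeper cells: from the lowest to the highest quartile of UMIs it was 1345, 1583, 1591 and 1796 CPM in SAP and 1501, 1584, 1642 and 1765 CPM in Control. Within the deepest quartile, which holds 63 of 131 SAP and 67 of 135 Control Mki67 cells, the Mki67 ratio was 1.6 (1.52 to 1.68) in SAP and 1.55 (1.47 to 1.64) in Control. In the other quartiles, lowest first, it was 1.27, 0.746 and 1.14 in SAP and 1.10, 1.07 and 1.21 in Control, the third Control quartile having an interval above equality and the second SAP quartile one below it (0.577 to 0.949). The mean log2 ratio over quartiles was 0.20 in SAP and 0.28 in Control, against 0.60 and 0.57 for the plain sums. In cells thinned to 1000 UMIs, Mki67 cells had a mean of 1.92 UMIs of the 10 genes in SAP and 2.08 in Control, against 1.59 and 1.61 over all CD3 cells. Shares of thinned SAP Mki67 cells with a UMI were below those of all SAP CD3 cells for Pgk1 (3.97% against 6.04%) and Aldoa (16.7% against 20.2%). They were above for Gapdh (48.4% against 44.8%), Pkm (24.6% against 17.2%), Ldha (19.8% against 18.2%), Eno1 (9.52% against 7.82%) and Tpi1 (8.73% against 7.19%). The part of depth in the Mki67 difference was not tested beyond these values.

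Trdc cells, taken as γδ T cells on Trdc alone, had the lowest summed level of the gates. It was 0.828-fold that of the other CD3 cells in SAP (0.809 to 0.848) and 0.872-fold in Control (0.852 to 0.893). Hk2 alone was 1.5-fold lower in both libraries, 1 of 10 genes, against 2.85% of 5437 genes lower and 0.681% higher. Without Folr1 cells it was also 1 of 10, against 1.13% lower and 0.619% higher. Hk2 had 13.5 CPM in SAP Trdc cells, against 22.0 CPM in the others (0.612-fold, 0.481 to 0.777), and 12 CPM in Control, against 25.3 CPM (0.474-fold, 0.370 to 0.603). Gapdh was 0.748-fold in SAP and 0.808-fold in Control, and Pgk1 0.747-fold and 0.845-fold. Pkm, Aldoa and Eno1 were lower in both libraries with intervals below equality, at 0.863-fold to 0.888-fold in SAP and 0.873-fold to 0.933-fold in Control. Ldha, Tpi1 and Slc2a1 have intervals that hold equality in both. Slc2a3 was 1.24-fold in SAP (1.08 to 1.44) and 1.12-fold in Control, where the interval of 0.966 to 1.31 holds equality. Without Folr1 cells Slc2a3 was 1.15-fold in SAP (0.996 to 1.33), so that its interval then holds equality too. In that set Ldha was 0.906-fold in SAP, with an interval of 0.847 to 0.969 below equality, and Aldoa was 0.945-fold in Control, with an interval from 0.888 to just above equality.

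Cd8b1 cells, which carry the CD8αβ coreceptor, had 1.16-fold the summed level of the others in SAP (1.12 to 1.2) and 1.13-fold in Control (1.09 to 1.17). None of the 10 genes was 1.5-fold away in both libraries, against 1.28% of 5406 genes higher and 6.96% lower (1.31% and 5.43% without Folr1 cells, where the count was also 0 of 10). Gapdh was 1.23-fold in SAP and 1.21-fold in Control, Eno1 1.30-fold and 1.23-fold, Pgk1 1.22-fold and 1.26-fold, and Aldoa 1.12-fold and 1.11-fold. Hk2 was 1.34-fold in SAP (0.959 to 1.83), an interval that holds equality, and 1.41-fold in Control (1.01 to 1.91). Without Folr1 cells Hk2 was 1.37-fold in Control (0.988 to 1.87), so that its interval there holds equality too. Tpi1 ran the other way, with 54.1 CPM in SAP Cd8b1 cells, against 70.6 CPM in the others (0.766-fold, 0.623 to 0.933), and 49.7 CPM in Control, against 61.6 CPM (0.807-fold, with an interval from 0.644 to just under equality). Cd8a cells without Cd8b1 had 0.948-fold the summed level in SAP and 0.947-fold in Control. In them 0 of the 9 genes with enough UMIs were 1.5-fold away in both libraries, against 1.05% of 5444 genes higher and 0.882% lower (0 of 10 without Folr1 cells, against 1.12% and 0.988%). There Tpi1 was the gene with the higher level, 84.9 CPM against 63.1 CPM in SAP (1.34-fold, 1.19 to 1.52) and 68.3 CPM against 57.3 CPM in Control (1.19-fold, 1.04 to 1.36). Pgk1 was 0.837-fold in SAP and 0.780-fold in Control, and Gapdh 0.894-fold and 0.946-fold. Tpi1 itself had 1202 UMIs in SAP and 1054 in Control CD3 cells. Its near-identical copies Tpi-rs11 and Tpi-rs10 had 15 and 2 UMIs in SAP, against 5 and 0 in Control, and reads of a copy and the gene cannot be told apart with certainty. Spsb2, a separate gene with a stretch of 91.0% identity, had 105 UMIs in SAP and 138 in Control.

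Gates on activation genes, chosen after values were seen, differed little. Cells with a UMI of Tnfrsf9 (4-1BB), a costimulatory receptor, had 1.05-fold the summed level of the other CD3 cells in SAP and 1.06-fold in Control, and were deeper (medians of 4326.5 and 3718 UMIs, against 3260 and 2961.5). Cells with a UMI of the cytokine Ifng had 1.04-fold in SAP and 0.990-fold in Control.

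Paralog use was nearly exclusive at 4 steps. Aldoa made up 99.4% of aldolase UMIs in SAP and 99.5% in Control, Gapdh 99.96% and 99.98% of the pair with Gapdhs, and Pgk1 99.7% and 99.9% of the pair with Pgk2. The liver pyruvate kinase gene Pklr had 0 UMIs in both libraries. The M1 and M2 splice forms of Pkm cannot be told apart in counts per gene. Among phosphofructokinases, Pfkp made up 87.2% in SAP and 89.5% in Control. Among glucose transporters Slc2a3 made up 53.7% and 53.5% and Slc2a1 28.6% and 27.3%, followed by Slc2a8 with 7.95% and 10.8%.

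The share of Hk2 among hexokinases differed between gates. Over all CD3 cells Hk1, the widely used hexokinase, made up 64.5% of hexokinase UMIs in SAP and 68.4% in Control, and Hk2 30.2% and 28.4%. In Cd4 cells Hk2 was the majority form, 69.1% of 55 UMIs in SAP (Clopper-Pearson interval 55.2 to 80.9) and 54.1% of 61 UMIs in Control (40.8 to 66.9). Without the 1 Cd4 cell of each library with the most Hk2 UMIs the share was 64.6% of 48 UMIs in SAP (49.5 to 77.8) and 47.2% of 53 UMIs in Control (33.3 to 61.4), so the majority in Control rests on 1 cell. Over the whole gate Hk2 made up 37.9% in SAP and 40.3% in Control Cd8b1 cells, 25.3% and 22.0% in Cd8a cells, and 23.5% and 19.4% in Trdc cells. The Cd4 intervals lie above those of Cd8a and Trdc cells in both libraries, and above that of Cd8b1 cells in SAP alone. Hk1 itself was 0.65-fold in SAP and 0.83-fold in Control Cd4 cells, with intervals that hold equality.

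Ldha and Eno1 shares depended on the Folr1 cells. Ldha made up 92.1% of lactate dehydrogenase UMIs in SAP and 95.8% in Control CD3 cells, and 97.6% and 97.4% without Folr1 cells. Within the Folr1 cells Ldhb, the form favoured in oxidative tissues such as heart, held 71.4% of 308 UMIs in SAP and 73.1% of 93 UMIs in Control. Eno1 made up 81.6% of enolase UMIs in SAP and 91.9% in Control, and 93.6% and 95.4% without Folr1 cells. Eno1b, counted as a separate enolase, had 82 UMIs in SAP and 37 in Control CD3 cells. It matches a stretch of the Eno1 transcript end at 100% identity, so its UMIs and those of Eno1 cannot be told apart with certainty. Eno3, the muscle enolase, held 64.6% of 263 enolase UMIs in SAP Folr1 cells and 64.2% of 81 in Control. Folr1 cells had 68.4 CPM of Ldha in SAP and 59.0 in Control, and 3.89 CPM of Slc2a3 (5 UMIs) and 7.08 CPM (3 UMIs). Hk2 had 5 UMIs in SAP Folr1 cells and 0 in Control ones, for which the exact upper limit is 8.70 CPM.

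**Figure D3:**
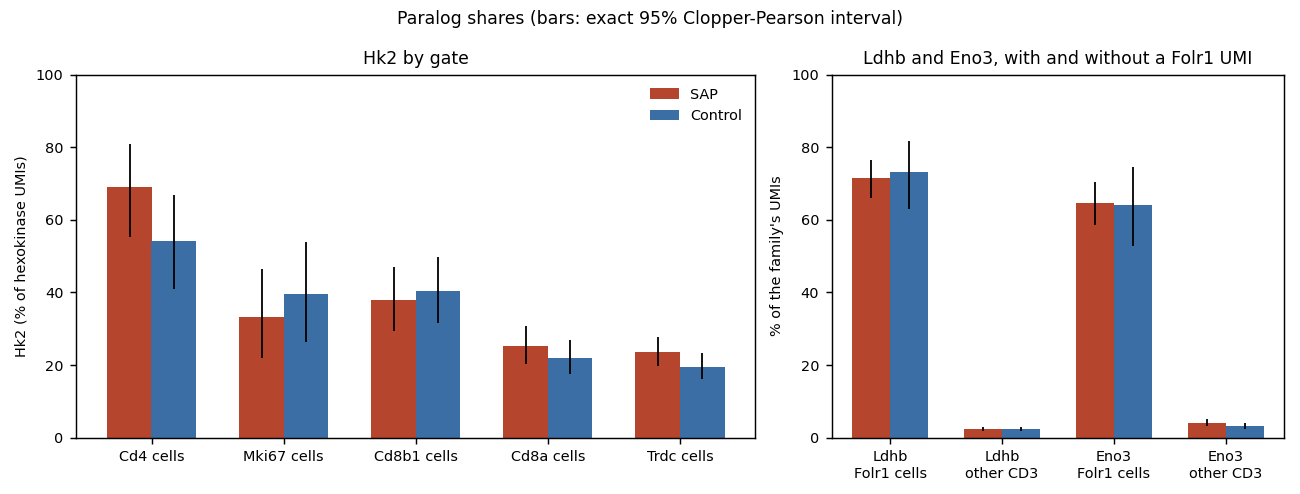
Left, share of hexokinase UMIs that are Hk2 in 5 gates; right, share of lactate dehydrogenase UMIs that are Ldhb and of enolase UMIs that are Eno3, in CD3 cells with and without a Folr1 UMI. SAP (red) stands left of Control (blue), axes run from 0 to 100%, and bars are exact 95% Clopper-Pearson intervals; the Hk2 share is 69.1% in SAP and 54.1% in Control Cd4 cells, and under 50% in the other gates.

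Near-identical gene copies limit the readings of some enzymes. Within the last 500 bases of the transcript, 222 annotated copies match Gapdh over at least 90 bases at 90% identity or more, 19 match Ldha, 10 Eno1, 9 Aldoa, 8 Pkm and 3 Tpi1 (Spsb2 among them), and none match Pgk1, Slc2a1, Slc2a3 or Hk2. Copies of Gapdh held 1721 UMIs in SAP and 760 in Control, of which 1436 and 453 were in Folr1 cells. How reads of such copies were assigned by the authors' counting is not given in the sources used here.

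Between SAP and Control the 10 genes differed little. Their sum was 0.996-fold in SAP (0.980 to 1.01) and 0.988-fold without Folr1 cells. None of the 9 genes with enough UMIs was 1.2-fold away, against 15.0% of 5684 genes, 12.5% higher and 2.48% lower. With median-of-ratios or TMM factors the count was 1, Eno1. Hk2 was under the level needed for that count. Without Folr1 cells the count was again 0 of 9, against 8.43% of genes, 6.81% higher and 1.61% lower. At 1.5-fold 4.61% of genes passed, and 0.238% without Folr1 cells. The median gene stood at 1.03-fold. Eno1 had 81.6 CPM in SAP and 94.1 in Control (0.867-fold, 0.807 to 0.931), and 0.898-fold without Folr1 cells. Tpi1 had 68.7 CPM in SAP and 60.3 in Control (1.14-fold, 1.05 to 1.24), and 1.15-fold without Folr1 cells. Ldha was 0.942-fold (0.900 to 0.987), and 0.974-fold without Folr1 cells, where the interval holds equality. Gapdh was 1.03-fold, and 0.989-fold without Folr1 cells. The intervals of Pkm, Aldoa, Pgk1, Slc2a1, Slc2a3 and Hk2 hold equality. Without Folr1 cells those of Aldoa (0.955-fold, 0.913 to 0.998) and Slc2a3 (1.13-fold, 1.02 to 1.25) exclude it. By gate the log2 ratio of SAP to Control for the summed level was 0.13 in Cd4 cells and -0.051 in Trdc cells. Whether differences of this size lie beyond the spread between cultures cannot be told from 1 library each.

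**Figure D4:**
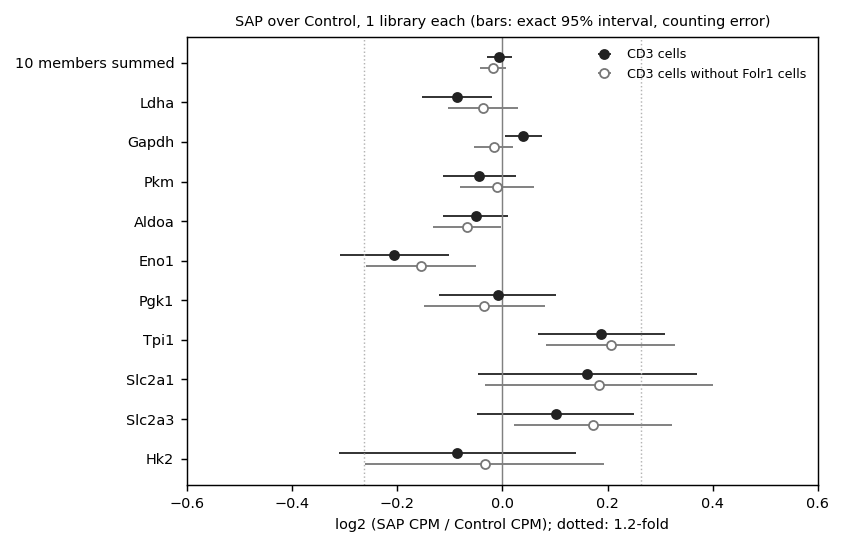
Log2 ratio of SAP CPM to Control CPM over all CD3 cells (filled) and without Folr1 cells (open) for the summed genes and each gene, with exact 95% intervals of counting error and dotted lines at 1.2-fold. All points lie inside the dotted lines; Eno1 lies lowest (0.867-fold) and Tpi1 among the highest (1.14-fold).

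The rest of the pathway, listed with earlier results known, gives the setting. Of 28 other genes of glucose use, 12 had enough UMIs between libraries, of which only the lactate transporter Slc16a1 was 1.2-fold higher in SAP (22.1 CPM, against 18.0 CPM in Control) and 0 were lower, against 12.5% and 2.48% of all genes; without Folr1 cells it was 0 of 11. Of 26 regulators and targets of HIF and Myc, 16 had enough UMIs and Myc alone passed, with 26.3 CPM in SAP and 18.0 CPM in Control (21.9 and 17.4 CPM without Folr1 cells). In Cd4 cells, where 5.98% of all genes were 1.5-fold higher in both libraries and 12.8% lower, 1 of 11 other pathway genes was higher, the phosphoglycerate mutase Pgam1, with 73.0 CPM against 45.2 CPM in SAP and 134 CPM against 47.9 CPM in Control. Of 15 regulators and targets, Hif1a and Odc1 were higher and Max, Arrdc4 and Mlxip lower. Hif1a, which encodes the oxygen-sensitive subunit of HIF-1, had 262 CPM against 77.4 CPM in SAP Cd4 cells and others, and 239 CPM against 70.7 CPM in Control. Arrdc4, a gene switched on by glucose, had 6.34 CPM against 33.9 CPM in SAP and 8.58 CPM against 38.1 CPM in Control. In SAP Cd4 cells 3 UMIs amount to 4.76 CPM, so the Arrdc4 level there rests on few UMIs.

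Against the same 5.98% and 12.8% of genes in Cd4 cells, 4 of 11 activation genes were higher (Tnfrsf4, Il2ra, Irf4 and Ifng) and 5 lower (Tnfrsf9, Gzmb, Gzma, Prf1 and Tbx21). Of 9 cell cycle genes with enough UMIs, 6 were higher. The OX40 gene Tnfrsf4 had 205 CPM in SAP Cd4 cells, against 10.9 CPM in the others, and 262 CPM against 13.9 CPM in Control. In Mki67 cells (5.95% of genes higher and 2.46% lower) 3 of 12 other pathway genes were higher (Pgam1, Pdk3 and Tkt), 0 of 15 regulators passed in either direction, and 14 of 14 cell cycle genes were higher, Mki67 itself being the gate. In Cd8b1 cells (1.28% higher and 6.96% lower) Slc16a1 alone of 12 was higher, at 31.8 CPM against 20.9 CPM in SAP and 32.9 CPM against 16.3 CPM in Control. In Trdc cells (0.681% higher and 2.85% lower) and Cd8a cells (1.05% and 0.882%) 0 of 11 other pathway genes passed in either direction.

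Co-variation of the 10 genes between cells was close to absent at this depth. In cells thinned to 1000 UMIs, the 45 pairwise Pearson r of log counts had a median of 0.0025 over 4272 SAP cells and 0.0020 over 4855 Control cells, with ranges of -0.029 to 0.056 and -0.028 to 0.047. The highest pair was Ldha with Tpi1 in SAP and Gapdh with Eno1 in Control. The points are cells of 1 library with the same total, and counts this sparse allow only weak r. In cells thinned to 2000 UMIs the median was 0.0092 in SAP and 0.017 in Control. Cells with 3 or more Gapdh UMIs per 1000 (168 SAP and 191 Control cells) had 286 Aldoa UMIs per 1000 cells in SAP and 298 in Control, against 220 and 220 in cells with none, and the intervals overlap in both libraries. Ldha in those cells was 268 and 257 per 1000, against 206 and 209, also with overlapping intervals. Eno1 was 77.4 per 1000 in SAP, against 80.1, and 141 per 1000 in Control (93.2 to 206), against 78.0 (67.6 to 89.5), where the intervals are apart. Cd3e went the other way, 1101 and 1157 against 1591 and 1715.

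**Figure D5:**
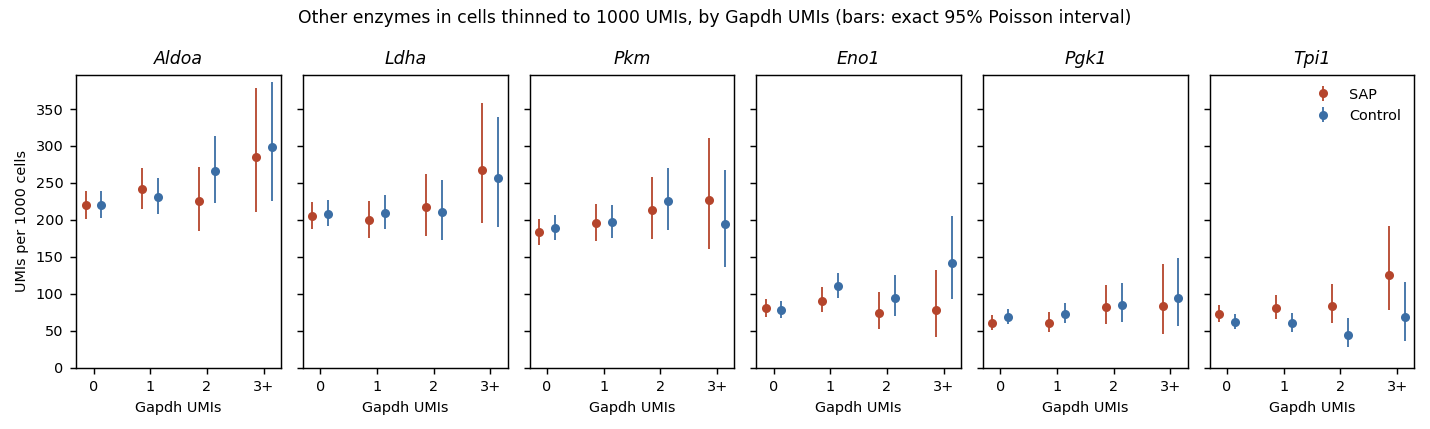
UMIs of 6 enzymes per 1000 cells (linear axis from 0) in CD3 cells thinned to 1000 UMIs and binned by their Gapdh UMIs, SAP in red left of Control in blue, with exact 95% Poisson intervals. Aldoa is 286 and 298 per 1000 cells at 3 or more Gapdh UMIs, against 220 and 220 at 0, with overlapping intervals; between these bins Eno1 in Control (141, against 78.0) has intervals that are apart.

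The 10 genes of 2463 ranked whose thinned counts followed the summed counts of the glycolytic set most closely were Actg1, Myl12a, Arpc3, Actb, Txn1, Ifi27l2a, Cd5, Fau, H2az1 and Atp5d. Likeness was the lower of the r in the 2 libraries, over 4272 SAP and 4855 Control cells. Actg1, a cytoplasmic actin, had an r of 0.069 in SAP and 0.073 in Control, the highest by this rule. Values this small are given as a ranking and not as a finding.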

How the data were processed

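The values are raw UMI counts, deposited by the authors as 1 sparse matrix for each library. Per the file headers, Cell Ranger 7.1.0 made them. The submitters' processing notes also name Seurat and the build mm10, and the kit was a 10x 3′ kit of version 3 with a target of 5000 cells, per the labels' protocols. Which annotation was counted is not given in the sources used here. The deposited libraries hold 19144320 UMIs over 5203 barcodes (SAP) and 19142384 UMIs over 5737 barcodes (Control).

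Barcodes were kept with at least 500 UMIs, 300 genes and at most 10% mitochondrial UMIs, leaving 5028 SAP and 5665 Control barcodes. Scrublet (scanpy 1.11.5) marked 0 and 1 barcodes by its own threshold, which is too few to have worked, so the top scores were removed up to 0.8% per 1000 barcodes (202 and 257). Members were read by symbol from the deposited gene lists. UMIs were summed per library and gate, and ratios of 2 sums have exact conditional binomial intervals, levels Poisson intervals and shares Clopper-Pearson intervals. Gates were compared within each library, and the 2 libraries with each other, with no test, since each group has 1 library. A gene entered a count with 20 CPM in at least 1 arm and 50 UMIs over both arms. The folds counted were 1.2 between libraries and 1.5 between gates in both libraries, and a gate direction was named where both libraries and both intervals had it. Cells were thinned once, at random, to 1000 UMIs for shares and correlations. Genes most like the members needed a UMI in at least 5% of thinned cells. Copies were found with BLAST 2.17.0 against GENCODE M21, in which 52081 of 55357 gene identifiers and all 11 member identifiers were present. Scripts were tested on simulated data. Alternatives were other filters, scale factors, gates, depths and thinning sizes; leaving out Folr1 cells, the cell of a gate with the most member UMIs or the Cd4 cell with the most Hk2 UMIs was added after the data were seen. The members, gene lists and gates were chosen with earlier results of these data known.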

Additional observations from a re-analysis of the deposited data

Results flagged for a closer look

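Of 50 comparisons of a gene between a gate and the other CD3 cells, 5 pointed opposite ways in SAP and Control, all in the glucose transporters. The share of all genes that do so was not computed, and the difference between libraries was not tested. The log2 ratio of Slc2a1 in Cd8b1 cells was 0.34 in SAP and -0.44 in Control, and in Trdc cells it was -0.044 and 0.13. The log2 ratio of Slc2a3 was 0.18 in SAP and -0.082 in Control for Cd8b1 cells, -0.13 and 0.49 for Cd4 cells, and 0.33 and -0.070 for Mki67 cells. Each of these 10 intervals holds equality, and Slc2a1 had 57 UMIs in SAP and 29 UMIs in Control Cd8b1 cells.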

How the results depend on the processing

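With 1 library per group there was no replicate to leave out. No paired analysis was possible because the 2 groups share fewer than 2 replicate numbers. All values here are log2 ratios of the summed genes unless named otherwise, and an alternative is listed where it fell outside the counting interval of the reported value or, for a count, over 1.5 times away. For summed ratios, shares, counts and co-variation, 236 alternatives were inside these limits, 109 were outside and 1 turned sign. Among these, raising the minimum to 1000 UMIs, a limit of 5% mitochondrial UMIs and keeping doublets moved none outside. For ratios of single genes, 1205 alternatives were inside, 57 were outside and are not listed, and 8 turned sign and are listed below. The directions of the summed gate ratios held under every alternative run.

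SAP over Control was -0.0062 as reported, -0.088 with median-of-ratios factors, -0.11 with TMM factors, -0.054 with the mean of each cell's own CPM, -0.054 over depth quartiles and -0.041 without Gapdh. By gate it was -0.051 in Trdc, 0.025 in Cd8b1, 0.13 in Cd4 and 0.022 in Mki67 cells.

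With median-of-ratios factors the SAP ratios were -0.32 in Trdc, 0.27 in Cd8b1, -0.12 in Cd8a and 0.48 in Mki67 cells, and the Control ratios 0.23 in Cd8b1, -0.15 in Cd8a and 0.47 in Mki67 cells. With TMM factors they were -0.33, 0.28, -0.13 and 0.48 in SAP, and -0.24 in Trdc, -0.15 in Cd8a and 0.46 in Mki67 cells in Control. On a scale without ribosomal protein and mitochondrial genes, Trdc, Cd8b1, Cd8a and Cd4 cells gave -0.32, 0.30, -0.12 and 0.84 in SAP and -0.24, 0.26, -0.12 and 0.71 in Control. With the mean of each cell's own CPM, SAP gave -0.19 in Trdc, -0.029 in Cd8a, 0.54 in Cd4 and 0.38 in Mki67 cells, and Control -0.15 in Trdc and 0.35 in Mki67 cells. Over depth quartiles, SAP gave -0.030 in Cd8a, 0.55 in Cd4 and 0.20 in Mki67 cells, and Control 0.28 in Mki67 cells. With gates at 2 UMIs, SAP gave 0.29 in Cd8b1, 0.89 in Cd4 and 0.86 in Mki67 cells, and Control 0.81 in Mki67 cells. Without Mki67 cells, SAP gave -0.23 in Trdc, 0.16 in Cd8b1 and 0.50 in Cd4 cells. Without the 1 cell with the most such UMIs, SAP gave 0.61 in Cd4 and 0.52 in Mki67 cells, and without Folr1 cells SAP Mki67 cells gave 0.67.

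Of 10 genes, the count 1.5-fold higher was 4 in Cd4 cells, 2 without the top cell and 2 without Mki67 cells. In Mki67 cells it was 5, and 3 with median-of-ratios factors, 3 with TMM factors, 3 without the top cell and 0 with the mean of each cell's own CPM. Between libraries the count 1.2-fold away was 0 of 9, and 1 with median-of-ratios and 1 with TMM factors.

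Paralog shares in percent moved mostly by gate. For Hk2 the values in Trdc, Cd8b1, Cd8a, Cd4 and Mki67 cells were 23.5, 37.9, 25.3, 69.1 and 33.3 in SAP and 19.4, 40.3, 22.0, 54.1 and 39.6 in Control. For Eno1 they were 89.4, 93.6, 79.2, 93.2 and 86.2 in SAP, and 98.1 in Cd8b1, 98.8 in Cd4 and 95.9 in Mki67 cells in Control. For Ldha they were 94.0, 96.2, 94.6, 97.5 and 90.2 in SAP, and 98.6 in Cd8b1 and 98.6 in Mki67 cells in Control. For Slc2a3, SAP gave 57.0 in Trdc, 51.0 in Cd4 and 58.9 in Mki67 cells, and Control 56.8 in Cd8b1, 49.6 in Cd8a, 62.9 in Cd4 and 57.1 in Mki67 cells. Pfkp was 83.6 in SAP Cd4, 85.0 in SAP Mki67 and 91.9 in Control Cd8b1 cells. Aldoa was 99.6 in SAP Cd8b1, 100 in SAP Cd4 and Mki67, and 99.7 in Control Trdc cells. Over all retained cells Eno1 was 78.3 in SAP and 89.9 in Control, Ldha 91.0 and 94.9, and Aldoa 98.95 in SAP. Without Folr1 cells Eno1 was 93.6 and 95.4 and Ldha 97.6 and 97.4.

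Thinned shares of cells, SAP minus Control in percentage points, came from 1 random draw per size. Thinned to 500 UMIs, Tpi1 turned to -0.090 (1.5 as reported) and Pgk1 was 0.50 (-0.74 as reported). Thinned to 2000 UMIs, Slc2a1 was 1.04 (-0.15 as reported). The cause was not tested.

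Of single genes, Gapdh between SAP and Control turned to -0.017 without Folr1 cells, -0.042 with median-of-ratios factors, -0.062 with TMM factors and -0.048 with the mean of each cell's own CPM. With that mean, Aldoa in SAP Mki67 cells turned to -0.046, Tpi1 in SAP Cd4 cells to -0.33 (also -0.33 without Mki67 cells) and Hk2 in Control Cd8b1 cells to -0.035. Depth limits Hk2, Slc2a1 and Slc2a3 most, with 11 to 43 UMIs each in Cd4 or Mki67 cells.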

Other observations

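Cells that no gate took, 711 in SAP and 814 in Control, had Hk2 at 21.9 CPM (53 UMIs) in SAP and 40.1 CPM (87 UMIs) in Control, the gate in which the libraries lay farthest apart for that gene. Their medians of 2472 and 2452 UMIs were lower than in every other gate, and Ldha in them was 157 CPM in SAP and 203 CPM in Control. This set is defined by the absence of receptor and coreceptor UMIs, and its composition was not tested. It held 25 Folr1 cells in SAP and 10 in Control.

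Folr1 cells also used an uncommon hexokinase. Hkdc1 held 56.5% of 46 hexokinase UMIs in SAP Folr1 cells and 6 of 12 in Control, against 2.89% and 2.65% in the CD3 cells without Folr1. Slc2a13, a transporter of myo-inositol, had 18 UMIs in SAP, all in Folr1 cells, and 1 UMI in Control, also in a Folr1 cell.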
